A study of Mus musculus and Homo sapiens with 11 samples.

Results

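Neurotransmitter receptor subunits were followed in MMTV-ErbB2, a mammary tumour cell line of the mouse, and in its brain metastatic derivative, both grown in culture. They were picked by gene symbol, and comprised the AMPA, NMDA, kainate, delta and metabotropic glutamate receptors, the GABA-A and GABA-B receptors, the glycine receptors and the nicotinic acetylcholine receptors. The symbols matched 67 of the 24062 genes in the table. The name pattern did not take in Chrng, the fetal muscle nicotinic subunit, which was counted with related receptors instead. Polyadenylated RNA had been sequenced from 3 libraries of the brain metastatic derivative BrM 2a, called BrM here, and 3 libraries of the parental line. The MMTV promoter, of mouse mammary tumour virus, drives ErbB2 in the mammary epithelium of the tumours such lines come from. Both groups therefore share that origin, and no other genotype or treatment is given for either. The derivative is 1 line. Whether each library had a culture of its own is not stated, nor which medium (DMEM or RPMI) and kit (TruSeq v2 or NEBNext Ultra) it had. Effects of kit or medium and of the derivative therefore cannot be told apart, and the p-values rest on a spread among libraries that may be technical. The 5 human HCC1954 libraries were not analysed here.

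Fast synaptic signalling relies on channels assembled from several subunits, each opened by a transmitter. AMPA, NMDA and kainate receptors pass cations when glutamate binds, GABA-A and glycine receptors pass chloride, and nicotinic receptors pass cations when acetylcholine binds. Metabotropic glutamate receptors and the GABA-B receptor act through G proteins. Many subunits reach the cell surface or open only in company: GABA-B needs Gabbr1 and Gabbr2 together, NMDA receptors need Grin1, most GABA-A receptors need alpha and beta subunits, and Grik5 and Chrna5 do not form channels by themselves.

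Most of these genes were close to silent in both lines. A mean of at least 10 normalised read counts over the 6 libraries, the level used here for expression, was reached by 15 of the 67: 5 of 18 ionotropic glutamate receptor subunits, 1 of 8 metabotropic glutamate receptors, 2 of 19 GABA-A subunits, 1 of 2 GABA-B subunits, 1 of 5 glycine receptor subunits and 5 of 15 nicotinic subunits. Of the 52 others, 11 had no read in any library. The unit is the read count divided by 1 scaling factor per library, so that 1 read was worth 0.824 to 1.22 units, and the libraries held 29877087 to 46683735 reads. The 67 genes together made up 0.0126%, 0.0155% and 0.0162% of the summed values in BrM replicates 1, 2 and 3, against 0.0112%, 0.0108% and 0.0101% in parental replicates 1, 2 and 3. A single gene, Chrnb1, held 48.8%, 81.0% and 80.1% of the members' sum in BrM replicates 1, 2 and 3, and 45.1%, 37.4% and 51.4% of it in parental replicates 1, 2 and 3.

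**Figure D1:**
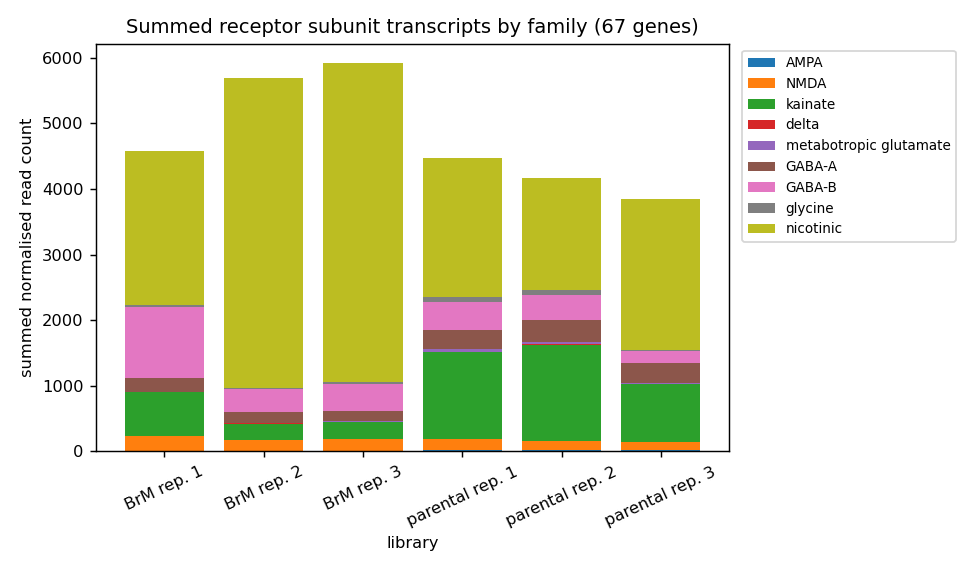
Summed normalised read counts of the 67 receptor subunit genes in each library, stacked by receptor family, with the 3 BrM libraries left of the 3 parental libraries. Nicotinic subunits, nearly all Chrnb1, fill most of BrM replicates 2 and 3, while kainate subunits take 4.37% to 14.5% of the sum in BrM libraries and 23.0% to 35.3% of it in parental libraries.

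Among the 15 expressed subunits, 3 passed the test between lines, all lower in BrM: the kainate subunit Grik2, the metabotropic receptor Grm8 and the nicotinic subunit Chrna5. The test was limma's moderated fit with an intensity trend on log2 of the value plus 1, two-sided, with Benjamini-Hochberg adjustment over the 13821 genes whose mean reached 10, and a threshold of 0.05. It called 28.1% of all tested genes, 12.2% higher and 15.8% lower in BrM, so 3 of 15 (20%) is no larger a share than that of genes at large. The 3 reached the expression level through their parental values, since their BrM means lay under 10, which makes a fall the outcome open to them. The other 12 split evenly, 6 with a positive and 6 with a negative fold change. At an unadjusted p under 0.05, limma had 1 subunit higher (Chrnb1) and 4 lower in BrM. At an adjusted p under 0.05 on the recovered reads, edgeR called 1 higher and 2 lower, and DESeq2 1 higher and 4 lower. Over all 13821 tested genes edgeR called 3753 and DESeq2 5075. The median log2 fold change was -0.51 over the 15 and -0.05 over all tested genes. Groups did not overlap for 4 of the 15, with BrM above for 1 (Chrnb1) and below for 3, against 48.0% of tested genes, 22.3% with BrM above and 25.7% with BrM below.

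**Figure D2:**
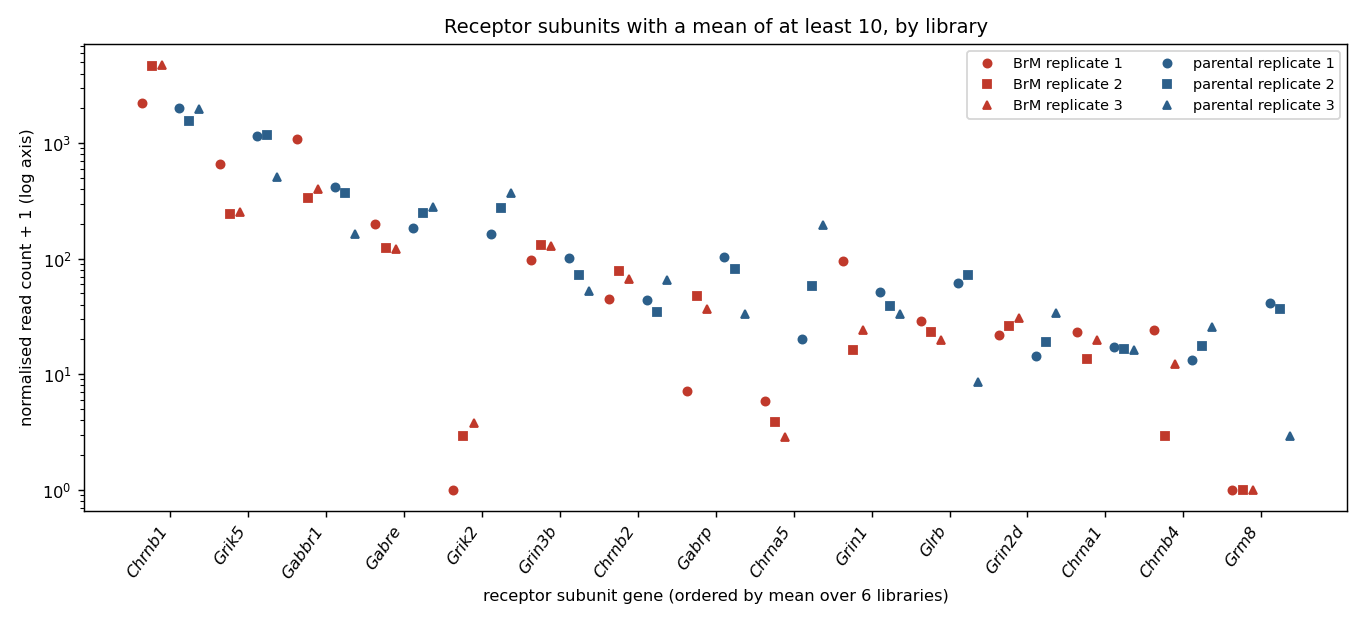
Normalised read count plus 1 on a log axis for the 15 expressed subunits, ordered by their mean, with BrM libraries in red left of parental libraries in blue and a marker shape per replicate. Grik2, Chrna5 and Grm8 stand at 4.88 or less in every BrM library, and Chrnb1 is the most abundant subunit in all 6 libraries.

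**Figure D3:**
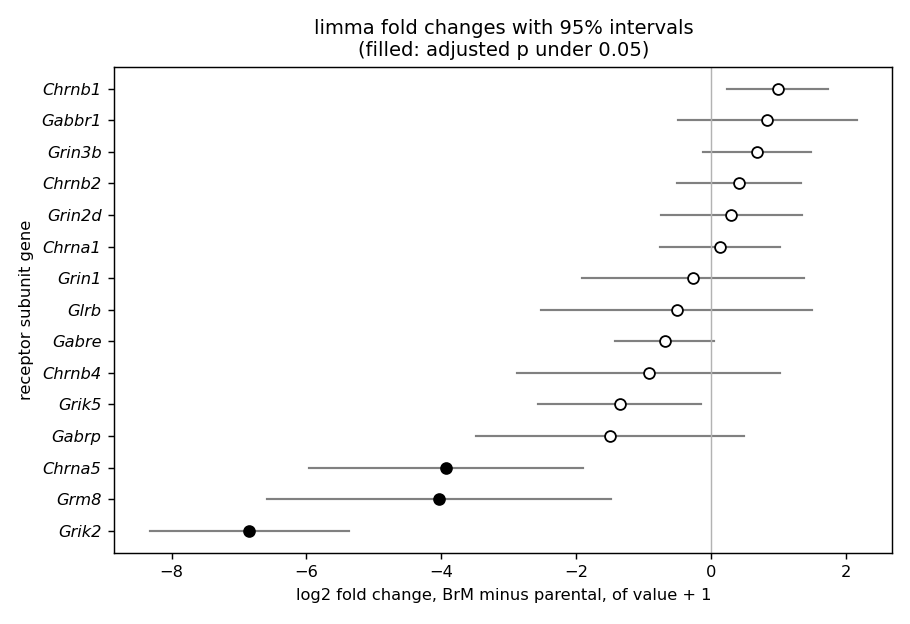
log2 fold changes of the 15 expressed subunits, BrM minus parental, on the scale of the value plus 1; bars are 95% intervals from limma and filled points have an adjusted p under 0.05. Grik2 lies at -6.85, Grm8 at -4.03 and Chrna5 at -3.93, and 10 of the 12 open points have intervals that include 0.

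Among the kainate receptors the channel-forming subunit Grik2 fell in BrM to a few reads, while its partner Grik5 averaged 384 normalised counts there. Grik2 encodes GluK2, which forms kainate-gated channels alone or with Grik5. It had 0, 1.91 and 2.79 normalised counts in BrM replicates 1, 2 and 3, against 163, 275 and 372 in parental replicates 1, 2 and 3. Every BrM library was near or at the level of no read, and the groups were far apart. The log2 fold change was -6.85 (SE 0.62, adjusted p = 0.000716), or 115-fold lower, with the direction shown by 3 of 3 BrM libraries. By reads the figures were 5 in BrM and 888 in the parental line, a ratio of 160-fold (exact 95% interval 68.4 to 495, counting error only). The call held in all 19 alternatives, with log2 fold changes of -7.34 to -5.58. In such bulk RNA, fewer cells that express a gene and less RNA in each cell cannot be told apart. Grik2 lies on chromosome 10 (GRCm38, 49094833 to 49788766, minus strand).

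Grik5, which encodes the high-affinity subunit GluK5, kept a sizeable level in both lines. It had 656, 245 and 252 in BrM replicates 1, 2 and 3, against 1149, 1183 and 504 in parental replicates 1, 2 and 3. BrM replicate 1 was above parental replicate 3, so the groups overlapped. The log2 fold change of -1.36 (95% interval -2.57 to -0.15) did not pass (adjusted p = 0.0914). It passed without BrM replicate 1 (adjusted p = 0.0112, 3.54-fold lower) and with DESeq2 (adjusted p = 0.0459). Per kb of merged exons, Grik5 stood at 74.4 in BrM and 183 in the parental line, Grik2 at 0.118 in BrM and 20.4 in the parental line, and the channel-forming subunit Grik3 at 0.553 in BrM and 0.774 in the parental line. Per kb, Grik5 exceeded Grik2 by 628 times in BrM and 8.97 times in the parental line. The BrM figure rests on 5 Grik2 reads and was 271 times without BrM replicate 1 and 1206 times without BrM replicate 3. The parental figure was 13.6 times without parental replicate 3. Grik1 and Grik4 had at most 2.44 in any library.

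The metabotropic receptor Grm8 encodes mGlu8, a receptor that lowers cyclic AMP and in the brain sits mostly on presynaptic terminals. It had no read in BrM replicates 1, 2 and 3, against 40.7, 35.4 and 1.89 in parental replicates 1, 2 and 3. Parental replicate 3 was close to the BrM libraries, so the difference rests on parental replicates 1 and 2. Taking 3 reads over the 3 BrM libraries as the floor, Grm8 was at least 25.6-fold lower in BrM; the fitted log2 fold change was -4.03 (SE 1.06, adjusted p = 0.0330). The call ended without parental replicate 1 (adjusted p = 0.109, fitted fold 10.3 against 16.4 with all libraries), parental replicate 2 (0.118), BrM replicate 2 (0.0873) or BrM replicate 3 (0.0858), and the fitted fold, which depends on the added 1, was 39.0 without parental replicate 3. It also ended with edgeR (adjusted p = 0.0517) and with a pseudocount of 4 (adjusted p = 0.0613, fitted fold 5.45). Grm8, with a mean of 13.002, was the member just above the expression level, and Chrna2, with 8.20, the one just below it. Among the other metabotropic receptors, Grm5 and Grm6 had no read.

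NMDA receptor genes were low, and none of the 3 expressed ones passed the test (limma; adjusted p = 0.176 to 0.800). Grin1, the obligatory subunit, had 95.2, 15.3 and 23.3 in BrM replicates 1, 2 and 3, against 50.9, 37.9 and 32.1 in parental replicates 1, 2 and 3. The BrM values lay on both sides of the parental ones. Its mean was 44.6 ± 44.0 in BrM and 40.3 ± 9.62 in the parental line (SD, n = 3 each), while its log2 fold change was negative (-0.27, 95% interval -1.92 to 1.38). It was -1.03 without BrM replicate 1, and the sign turned without BrM replicate 2 (0.25), with edgeR (0.13) and with DESeq2 (0.17). The Grin1 exons share 1307 bases with the antisense gene Grin1os. Grin2d, a glutamate-binding subunit, had 20.8, 24.9 and 29.8 in BrM replicates 1, 2 and 3, against 13.2, 18.1 and 33.0 in parental replicates 1, 2 and 3, and its groups overlapped (log2 fold change 0.30, 95% interval -0.75 to 1.35). Grin2a had no read, and Grin2b, Grin2c and Grin3a had at most 9.77 in any library. Grin3b, a glycine-binding subunit, had 96.4, 129 and 127 in BrM replicates 1, 2 and 3, against 101, 71.7 and 51.9 in parental replicates 1, 2 and 3 (log2 fold change 0.68, 95% interval -0.12 to 1.48). Its exons share 1059 bases with Tmem259 on the other strand, which averaged 5885 in BrM and 5799 in the parental line. Whether reads were assigned by strand is not given in the sources used here, so the Grin3b values cannot be assigned to that gene alone.

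AMPA receptor subunits did not reach the expression level. Gria1 to Gria4, the subunits of the main fast excitatory receptor of the brain, held 11 reads in the 3 BrM libraries together and 69 in the 3 parental libraries. Most were Gria1, with 6.10, 1.91 and 0 in BrM replicates 1, 2 and 3, against 4.07, 8.24 and 16.1 in parental replicates 1, 2 and 3, and Gria3, with 1 read in BrM against 31 in the parental line (ratio 28.0-fold lower, exact 95% interval 4.66 to 1140.3). Gria3 stood at 10.2, 15.6 and 1.89 in parental replicates 1, 2 and 3, and at 1.22 in BrM replicate 1. Parental replicate 3 was thus close to BrM, and the difference rests on parental replicates 1 and 2. Grid1, of the delta family, had at most 3.29 in any library.

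The promoter windows of the 3 subunits that passed the test are shown so that the sequence at their starts can be read beside their values; the genes were called one by one and are not treated as a joint set. RefSeq (GRCm38.p6) gave a window, from 250 bases before to 50 after an annotated start, for 47 of the 67 genes. The windows printed are Grik2 at chr10:49788705-49789004 (minus strand), Grm8 at its outermost start, chr6:28135097-28135396 (minus strand), and both starts of Chrna5, chr9:54980630-54980929 and chr9:54981238-54981537 (plus strand). Each is written 5′ to 3′ on the gene's strand, and capitals mark the GC box, GGGCGG or its complement CCGCCC.
Grik2: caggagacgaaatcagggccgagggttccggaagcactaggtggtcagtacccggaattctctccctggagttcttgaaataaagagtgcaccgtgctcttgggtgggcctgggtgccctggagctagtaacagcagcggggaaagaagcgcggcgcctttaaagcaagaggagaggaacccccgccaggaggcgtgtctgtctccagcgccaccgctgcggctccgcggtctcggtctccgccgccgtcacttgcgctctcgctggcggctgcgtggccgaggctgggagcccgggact
Grm8: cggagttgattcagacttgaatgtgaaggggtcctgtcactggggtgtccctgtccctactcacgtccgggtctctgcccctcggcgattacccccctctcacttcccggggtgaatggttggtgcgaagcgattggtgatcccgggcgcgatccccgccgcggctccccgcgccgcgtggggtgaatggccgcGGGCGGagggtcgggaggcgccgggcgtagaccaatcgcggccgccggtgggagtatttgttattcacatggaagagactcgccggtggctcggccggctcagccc
Chrna5 start 1: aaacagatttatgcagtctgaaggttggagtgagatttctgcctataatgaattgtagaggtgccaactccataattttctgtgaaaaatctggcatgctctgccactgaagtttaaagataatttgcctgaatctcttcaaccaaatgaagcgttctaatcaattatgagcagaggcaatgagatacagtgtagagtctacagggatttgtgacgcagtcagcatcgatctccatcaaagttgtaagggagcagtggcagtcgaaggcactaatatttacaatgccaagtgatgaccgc
Chrna5 start 2: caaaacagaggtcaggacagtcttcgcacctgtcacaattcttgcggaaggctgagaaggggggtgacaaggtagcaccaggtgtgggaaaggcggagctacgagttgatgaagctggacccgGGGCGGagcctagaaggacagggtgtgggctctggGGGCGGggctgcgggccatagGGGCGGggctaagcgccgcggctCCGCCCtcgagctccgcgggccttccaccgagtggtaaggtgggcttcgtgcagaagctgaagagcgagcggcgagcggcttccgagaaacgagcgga
The second Chrna5 window held 4 GC boxes (3 forward and 1 reverse), the Grm8 window 1, and the Grik2 and first Chrna5 windows none. Of the 32851 windows in the RefSeq table, 35.7% held the motif on either strand. CpG dinucleotides numbered 26 in the Grik2 window, 33 in that of Grm8, and 5 and 25 at the first and second start of Chrna5, with a median of 7 over all windows. The other 2 Grm8 windows in the table, not printed, held no GC box and 10 and 2 CpG. A match or its absence describes these letters and says nothing of binding.

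GABA receptor genes were represented by Gabbr1 and by the unusual GABA-A subunits Gabre and Gabrp, and none of the 3 passed the test (limma; adjusted p = 0.308, 0.143 and 0.225). Gabbr1 encodes the GABA-binding subunit of the GABA-B receptor. It had 1078, 336 and 399 in BrM replicates 1, 2 and 3, against 418, 372 and 162 in parental replicates 1, 2 and 3. BrM replicate 1 stood above the other 5 libraries, which overlapped between lines (log2 fold change 0.83, 95% interval -0.49 to 2.16). Gabbr2, the subunit that couples to the G protein and carries Gabbr1 to the surface, had 1.22, 2.87 and 2.79 in BrM replicates 1, 2 and 3, against 7.12, 4.94 and 9.44 in parental replicates 1, 2 and 3. Per kb of merged exons Gabbr1 exceeded Gabbr2 by 227 times in BrM and 38.2 times in the parental line. The BrM figure rests on 7 Gabbr2 reads and was 112 times without BrM replicate 1. Gabbr2 lay below the expression level and was not tested.

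Gabre, the epsilon subunit, had 200.2, 122 and 121 in BrM replicates 1, 2 and 3, against 183, 247 and 278 in parental replicates 1, 2 and 3. Only BrM replicate 1 reached into the parental range (log2 fold change -0.69, 95% interval -1.43 to 0.05), and without it Gabre passed as lower (adjusted p = 0.0227). Gabrp, the pi subunit, which outside the brain is known from epithelia including the mammary gland, had 6.10, 46.9 and 35.4 in BrM replicates 1, 2 and 3, against 103, 80.7 and 32.1 in parental replicates 1, 2 and 3. Its groups overlapped at parental replicate 3 (log2 fold change -1.50, 95% interval -3.49 to 0.48), and the log2 fold change was -0.65 without BrM replicate 1. The other 17 GABA-A genes, which include all alpha, beta, gamma, delta, rho and theta subunits, had at most 4.12 in any library. Together they held 25 reads in BrM and 16 in the parental line, and 7 of them, among them Gabra4, Gabra5, Gabra6 and all 3 gamma subunits, had none.

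Glycine receptors were represented by Glrb, the beta subunit that binds the scaffold gephyrin and needs an alpha subunit to form a glycine-gated channel. It had 28.1, 22.0 and 18.6 in BrM replicates 1, 2 and 3, against 60.0, 71.7 and 7.55 in parental replicates 1, 2 and 3. Parental replicate 3 was below every BrM library, and parental replicates 1 and 2 were above them (log2 fold change -0.51, 95% interval -2.52 to 1.504, adjusted p = 0.685). Without parental replicate 3 Glrb passed as lower (adjusted p = 0.0436, 2.82-fold), and without parental replicate 2 its log2 fold change was 0.046. The alpha subunits Glra1 to Glra4 had at most 9.31 in any library. Among them Glra3, with no read in BrM against 13 parental reads, was at least 3.91-fold lower. Its values were 8.14, 3.29 and 0.944 in parental replicates 1, 2 and 3.

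Nicotinic receptor genes held the most abundant of the 67 and 1 of the 3 that fell. Chrnb1, the beta subunit of the muscle receptor, had 2235, 4614 and 4734 in BrM replicates 1, 2 and 3, against 2020, 1558 and 1975 in parental replicates 1, 2 and 3. All 3 BrM libraries were above the parental ones, BrM replicate 1 by a small margin. The mean was 3861 ± 1409 in BrM and 1851 ± 255 in the parental line (SD, n = 3 each), and the log2 fold change of 0.99 (95% interval 0.24 to 1.74) did not pass with limma (adjusted p = 0.0568). It passed with edgeR (adjusted p = 0.0473), with DESeq2 (0.00564) and without BrM replicate 1 (0.000865, 2.54-fold). Its adjusted p lay between 0.000865 and 0.174 in the 19 alternatives, and its fold change was positive in each. The muscle receptor also contains Chrna1, Chrnd and either Chrne or Chrng. Chrna1, the acetylcholine-binding subunit, had 22.0, 12.4 and 18.6 in BrM replicates 1, 2 and 3, against 16.3, 15.6 and 15.1 in parental replicates 1, 2 and 3, with the parental values inside the BrM range (log2 fold change 0.13, 95% interval -0.76 to 1.02). Without BrM replicate 1 it was -0.038. Per kb of merged exons Chrnb1 exceeded Chrna1 by 378 times in BrM and 205 times in the parental line. Chrnd and Chrne had at most 5.59 in any library. Of the 5 skeletal muscle markers examined, Myog had no read, Ckm at most 1.22, and the summed level was 74.5 to 105 in BrM and 51.9 to 98.8 in the parental line. Most of that sum was Myh1 and Acta1, which leaned in opposite directions and did not pass. Myh1 averaged 77.8 in BrM and 36.5 in the parental line, and Acta1 9.15 in BrM and 34.8 in the parental line.

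Chrna5, the accessory alpha5 subunit of neuronal receptors, had 4.88, 2.87 and 1.86 in BrM replicates 1, 2 and 3, against 19.3, 56.8 and 196 in parental replicates 1, 2 and 3. All BrM libraries were below the parental ones, which themselves spread widely. The log2 fold change was -3.93 (SE 0.85, adjusted p = 0.0164), or 15.3-fold lower, and 9 reads in BrM against 296 in the parental line gave a ratio of 29.7-fold (exact 95% interval 15.4 to 65.6). The fold was 8.52 without parental replicate 3 and 26.6 without parental replicate 1. The call ended without parental replicate 2 (adjusted p = 0.0606), BrM replicate 2 (0.0544) or BrM replicate 3 (0.0565), and stayed with edgeR (adjusted p = 0.0173) and DESeq2 (2.91e-05).

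Chrna5 lies beside Chrna3 and Chrnb4 on chromosome 9 (GRCm38, 54980880 to 55007779, 55010111 to 55026562 and 55028154 to 55048779), the gene cluster whose products make up the receptor of autonomic ganglia. Chrna3, the ligand-binding alpha3 subunit, had 2.44, 1.91 and 0.931 in BrM replicates 1, 2 and 3, against 1.02, 6.59 and 15.1 in parental replicates 1, 2 and 3. Its mean was under the expression level and it was not tested. Chrnb4, the beta4 subunit, had 23.2, 1.91 and 11.2 in BrM replicates 1, 2 and 3, against 12.2, 16.5 and 24.5 in parental replicates 1, 2 and 3, and its groups overlapped (log2 fold change -0.93, 95% interval -2.87 to 1.02, adjusted p = 0.435). Without BrM replicate 2 that value was -0.074, and without BrM replicate 1 it was -1.60. Parental replicate 3 held the highest parental value of all 3 genes of the cluster and parental replicate 1 the lowest. In BrM replicate 1 Chrnb4 stood at 23.2 and Chrna5 at 4.88, each the highest BrM value of its gene.

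**Figure D4:**
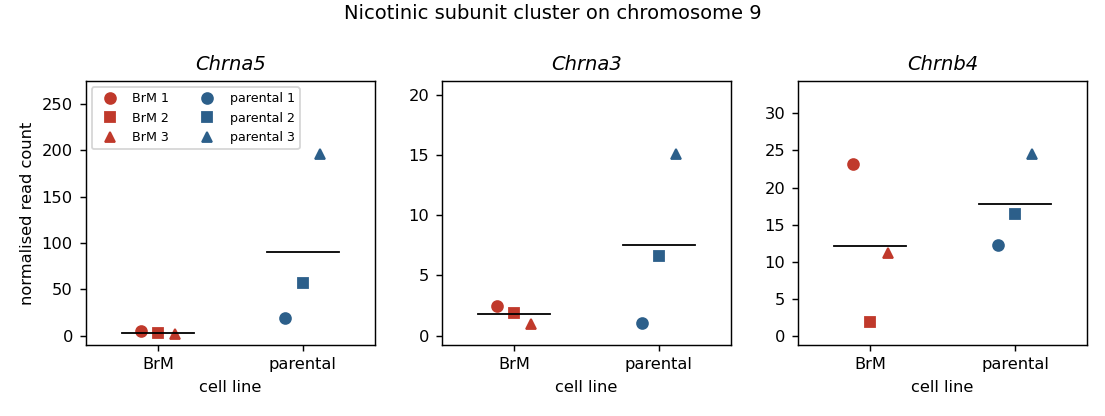
Normalised read counts of Chrna5, Chrna3 and Chrnb4 in the 3 BrM libraries (red, left) and the 3 parental libraries (blue, right), with a marker shape per replicate and a line at each group mean. Parental replicate 3 is the highest parental library in all 3 panels, at 196, 15.1 and 24.5, and BrM replicate 1 reaches 23.2 for Chrnb4 but 4.88 for Chrna5.

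Chrnb2, the beta2 subunit of the main nicotinic receptor of the brain, had 43.9, 76.5 and 66.1 in BrM replicates 1, 2 and 3, against 42.7, 33.8 and 64.2 in parental replicates 1, 2 and 3. The groups overlapped (log2 fold change 0.41, 95% interval -0.50 to 1.33, adjusted p = 0.463). Its usual partner Chrna4 had 1 read in all. The Chrnb2 exons share 1365 bases with Adar on the other strand, which averaged 2052 in BrM and 2018 in the parental line, so these values too cannot be assigned to Chrnb2 alone. Chrna2, just under the expression level, had 6.10, 16.3 and 18.6 in BrM replicates 1, 2 and 3, against 4.07, 4.12 and 0 in parental replicates 1, 2 and 3, and its 42 against 9 reads gave a ratio of 5.17-fold higher (exact 95% interval 2.48 to 12.1). Chrna7, the alpha7 subunit, had no read in BrM and 6 in the parental line, at least 1.81-fold lower. Chrna4, Chrna6, Chrna9, Chrna10 and Chrnb3 had at most 1.02 in any library.

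BrM replicate 1 and parental replicate 3 set much of the spread within their groups. BrM replicate 1 was at least 2 times above the mean of BrM replicates 2 and 3 for 5 of the 15 expressed subunits (Grin1 4.94, Chrnb4 3.54, Gabbr1 2.94, Grik5 2.64 and Chrna5 2.06 times) and at or below 0.5 times for 3 (Chrnb1 0.478, Gabrp 0.148 and Grik2, without a read). Parental replicate 3 was at least 2 times above the mean of parental replicates 1 and 2 for Chrna5 (5.16) and Grin2d (2.11), and at or below 0.5 times for 5, the lowest being Grm8 (0.0496) and Glrb (0.115). Over all tested genes 3614 and 3654 were at least 2-fold apart between BrM replicate 1 and BrM replicates 2 and 3, 220 between BrM replicates 2 and 3, and 976 to 1683 between parental libraries. With BrM replicates 2 and 3 averaged as 1 sample, an alternative chosen after seeing the data, Grik2 was the only subunit that passed.

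Genes that make, convert or carry glutamate were mostly lower in BrM. The 52 tested genes of 8 lists of enzymes, transporters, scaffolds and related receptors held 6 that rose, 15 that fell and 31 that did not pass (40.4% called, median log2 fold change 0.03). Of all 13821 tested genes 28.1% were called, 12.2% higher and 15.8% lower in BrM. The lists of GABA and glycine synthesis and of glutamate receptor scaffolds, at 20% each, lay below that share. The list of GABA and glycine receptor scaffolds, at 33.3%, lay near it. Above it lay glutamate synthesis and transport (62.5%), nicotinic chaperones, modulators and scaffolds (66.7%), related receptors (42.9%) and acetylcholine turnover (100%). These 4 lists held 8, 6, 7 and 2 tested genes. The 2 chloride cotransporters were at 0%. Of the called genes, Slc1a3, Kctd12, Lhfpl4, Shisa7 and Bche had BrM means under 10, which makes a fall the outcome open to them. Ache and P2rx3 had parental means under 10, which makes a rise the outcome open to them. Of 8 tested genes for glutamate synthesis and transport, 5 fell in BrM and 3 did not pass, with a median log2 fold change of -3.09. The glial-type glutamate transporter Slc1a3 (GLAST) had 0, 0.956 and 0 in BrM replicates 1, 2 and 3, against 729.7, 1806 and 2655 in parental replicates 1, 2 and 3, a ratio of 5164-fold lower from 1 read against 5722 (exact 95% interval 926.5 to 204015). Slc1a2 (GLT-1) fell 33.9-fold, at 80.6, 17.2 and 22.4 in BrM replicates 1, 2 and 3, against 1750.4, 1158 and 665 in parental replicates 1, 2 and 3; without BrM replicate 1 the fold was 53.6. Slc1a1, the neuronal and epithelial transporter, fell 28.2-fold (adjusted p = 0.00792), a fold of 56.6 when BrM replicate 1 was left out and of 17.8 when BrM replicate 2 was. Every BrM library lay below every parental library for all of them. Glutamine synthetase (Glul), which turns glutamate into glutamine, fell 11.8-fold, to 2282 ± 1407 in BrM against 25177 ± 9023 in the parental line (SD, n = 3 each, adjusted p = 0.00246). The cystine-glutamate exchanger Slc7a11 fell 6.11-fold (adjusted p = 0.0225), a fold of 3.82 when parental replicate 1 was left out and of 9.24 when parental replicate 3 was. Its call ended without parental replicate 2, BrM replicate 2 or BrM replicate 3 (adjusted p 0.0554 to 0.0739). Slc1a2 and Slc1a3 are also astrocyte markers. Of the 5 astrocyte markers examined, Aldh1l1 fell as well and Gfap rose, Aqp4 had at most 1.02 in any library, and the summed level was 102 to 222 in BrM and 4189 to 5223 in the parental line. Their part in the result was not tested.

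**Figure D5:**
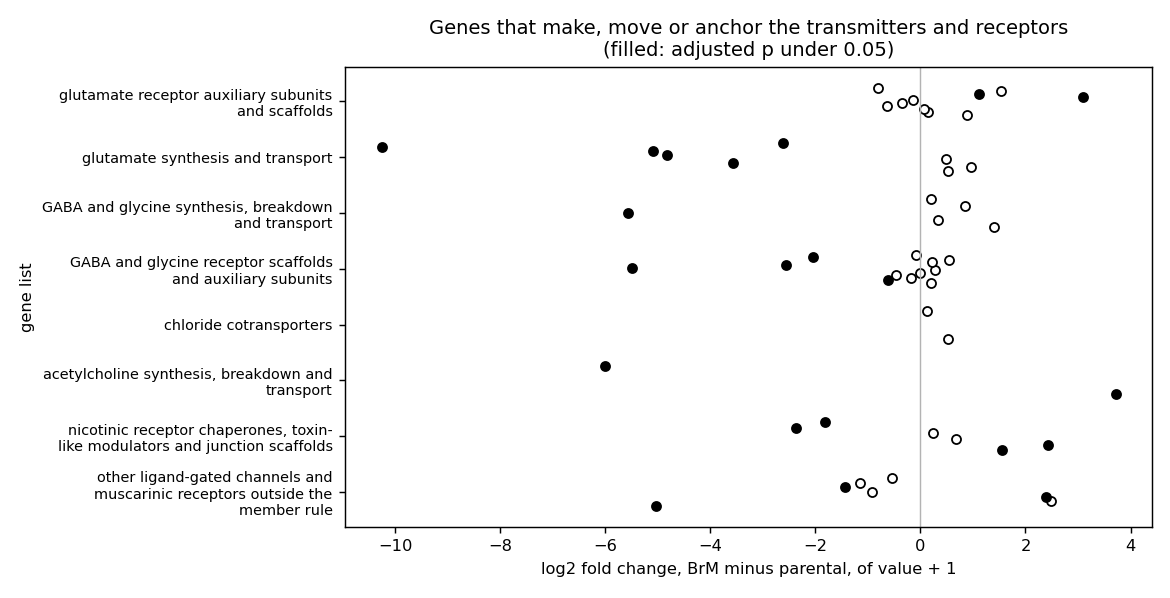
log2 fold changes, BrM minus parental, of the tested genes in 8 lists of transmitter enzymes, transporters, receptor scaffolds and related receptors; each point is a gene, filled where the adjusted p was under 0.05. The 5 filled points of glutamate synthesis and transport all lie below 0, from -10.25 to -2.61, and the acetylcholine list has a filled point on each side.

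On the GABA side, 1 of 5 tested genes for the synthesis, breakdown and transport of GABA and glycine fell and 4 did not pass. It was Gad1, an enzyme that makes GABA from glutamate, with 25.6, 7.65 and 7.45 in BrM replicates 1, 2 and 3, against 1656, 543 and 225 in parental replicates 1, 2 and 3. The fall was 47.1-fold (adjusted p = 0.00419), a fold of 28.1 when parental replicate 1 was left out and of 76.0 when parental replicate 3 was. Gad2, also an enzyme of GABA synthesis, did not pass and leaned the other way (limma, log2 fold change 0.85, adjusted p = 0.117). It had 41.5, 51.6 and 48.4 in BrM replicates 1, 2 and 3, against 34.6, 25.5 and 18.9 in parental replicates 1, 2 and 3. Of 12 tested scaffolds and auxiliary subunits of GABA and glycine receptors, 4 fell and 8 did not pass. Kctd12, an auxiliary subunit of the GABA-B receptor, fell 45.2-fold, to 3.23 ± 1.79 in BrM against 177 ± 14.1 in the parental line (SD, n = 3 each, adjusted p = 0.000496). Clptm1, which holds GABA-A receptors in the endoplasmic reticulum, fell 1.53-fold (adjusted p = 0.0201). Leaving out parental replicate 1, parental replicate 3, BrM replicate 2 or BrM replicate 3 ended its call (adjusted p of 0.0550 to 0.0700). Lhfpl4 and Shisa7, auxiliary proteins of GABA-A receptors, fell as well, with means of 2.93 and 4.63 in BrM against 25.7 and 20.4 in the parental line (adjusted p = 0.0478 and 0.0253). The call of Lhfpl4 ended without any library other than parental replicate 3 (adjusted p 0.0615 to 0.156; 9.92-fold without that library against 5.90-fold with it), and that of Shisa7 without any other than BrM replicate 1 (0.0708 to 0.0780). Lhfpl4 also lost it with a pseudocount of 4, upper quartile scaling, robust moderation or the replicate block (0.0513 to 0.0554). The chloride importer Slc12a2 and the exporter Slc12a5, which set whether GABA excites or inhibits a neuron, did not pass (adjusted p = 0.103 and 0.877).

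The 2 tested genes of acetylcholine turnover, both enzymes that break it down, changed in opposite directions. Acetylcholinesterase (Ache) rose 13.2-fold, with 117, 37.3 and 32.6 in BrM replicates 1, 2 and 3, against 3.05, 3.29 and 2.83 in parental replicates 1, 2 and 3 (adjusted p = 0.00464). Butyrylcholinesterase (Bche), the related enzyme, fell 64.3-fold, with 6.10, 5.74 and 6.52 in BrM replicates 1, 2 and 3, against 555, 437 and 391.8 in parental replicates 1, 2 and 3 (adjusted p = 0.000115). For both, all BrM libraries lay on the same side of all parental ones. Of 6 tested chaperones, modulators and junction scaffolds of nicotinic receptors, 2 rose, 2 fell and 2 did not pass. That is 66.7% called, against 28.1% of all tested genes. Agrin (Agrn), which clusters muscle nicotinic receptors at the nerve-muscle junction, rose 2.93-fold, to 16550 ± 4664 in BrM against 5678 ± 1773 in the parental line (SD, n = 3 each, adjusted p = 0.00921). Dok7, which activates the same pathway, rose 5.35-fold (adjusted p = 0.0377), and 9.28-fold without BrM replicate 1; its call ended without any other library (0.0844 to 0.124) and with limma without a trend (0.0511). Rapsyn (Rapsn), which anchors the receptor, fell 3.53-fold (adjusted p = 0.0207), a call that ended without parental replicate 1 (0.0733) or 2 (0.0601). Lynx1, a toxin-like inhibitor of nicotinic receptors, fell 5.18-fold (adjusted p = 0.0419), and 9.15-fold without BrM replicate 1, with the call ended without any other library (0.0898 to 0.134). The call of Lynx1 was also lost with edgeR (adjusted p = 0.0954, 3.74-fold), upper quartile scaling (0.0535) and limma without a trend (0.0576). Of 10 tested auxiliary subunits and scaffolds of glutamate receptors, 2 rose and 8 did not pass. Neto2, an auxiliary subunit of kainate receptors, rose 8.59-fold, with 295, 1022 and 1038 in BrM replicates 1, 2 and 3, against 36.6, 92.3 and 141 in parental replicates 1, 2 and 3 (adjusted p = 0.0168), and 13.02-fold without BrM replicate 1. Leaving out parental replicate 1, parental replicate 2, BrM replicate 2 or BrM replicate 3 ended its call (0.0507 to 0.0617). Pick1, which binds AMPA receptor tails, rose 2.17-fold (adjusted p = 0.00327).

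Markers of luminal mammary epithelium, the tissue in which MMTV-ErbB2 tumours arise, were abundant in both groups. Summed over Epcam, Krt8, Krt18, Cdh1 and Erbb2, the level was 185726 to 221896 in BrM and 127868 to 138723 in the parental line. Its members did not move alike. Krt8 and Krt18 were called higher in BrM, while Cdh1 was called lower, at 15921 in BrM against 24720 in the parental line. Epcam and Erbb2 did not pass. Neuronal markers summed to 1905 to 2093 in BrM and 969.8 to 1471 in the parental line, nearly all of it Map2, which was higher in BrM. Nefl had no read, and Snap25, Syt1, Rbfox3 and Stmn2 had at most 5.67 in any library. Among oligodendrocyte markers Mog and Mobp had at most 2.79, while Mbp, at 2085 in BrM and 1154 in the parental line, was higher in BrM. The microglial and leukocyte list summed to 302 to 558 in BrM and 57.7 to 101 in the parental line, with Csf1r and P2ry12 higher in BrM. The others did not pass or were not tested: Aif1 averaged 16.7 in BrM and 48.7 in the parental line, Cx3cr1 11.0 in BrM and 14.6 in the parental line, and Ptprc was at 4.88 or less in every library. Fibroblast and pericyte markers summed to 43.0 to 438 in BrM and 1340 to 5074 in the parental line, with Dcn, Pdgfrb and Col1a2 lower in BrM and Lum without a read. Col1a1, which held nearly all of the BrM sum, overlapped and did not pass. It had 437, 42.1 and 44.7 in BrM replicates 1, 2 and 3, against 106, 869 and 96.3 in parental replicates 1, 2 and 3. The part of these markers in the falls of Grik2, Grm8 and Chrna5 was not tested.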

How the data were processed

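RNA-seq of 6 mouse libraries was used, 3 of MMTV-ErbB2-BrM and 3 of MMTV-ErbB2-parental cells. The authors deposited a table of normalised read counts per gene, here treated as a signal: each value is a read count divided by 1 scaling factor per library. STAR, HTSeq and the build GRCm38 are named in the submitters' processing notes, with no versions; how reads were assigned to strands is not given in the sources used here. Columns 1 and 2 of each group match a numbered label and column 3 matches its group only. Division by the value of 1 read gave whole reads for 100% of values (tolerance 0.01); on those reads, edgeR called 3753 and DESeq2 5075 genes, against 3881 with limma on the deposited values. Intervals and floors (3 reads over a group) cover counting error only.

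The main test was limma 3.58.1 (R 4.3.3) with an intensity trend on log2(value + 1), for the 13821 genes with a mean of at least 10, Benjamini-Hochberg adjusted at 0.05. Fold changes on that scale understate those of low genes. Alternatives changed the pseudocount, filter, scaling and moderation, used edgeR 4.0.16 or DESeq2 1.42.0, added a replicate block, left out each library, or averaged BrM replicates 2 and 3. On simulated counts for these 13821 genes, limma recovered all 100 genes changed 4-fold and 57 of 100 changed 2-fold. The simulation gave every gene the same dispersion and held no library that stood apart, as BrM replicate 1 did. It therefore does not measure the recovery in these libraries. Levels per kb use the merged exon length of GENCODE M21 (GRCm38). Every expressed member is named, with the 3 of highest mean below that level; of each partner list, the called genes, or the 2 of highest mean where none was called. Other members below the level, the partner gene Gad2, and the ratios per kb without 1 library were chosen after their values were seen. Members and lists were chosen with earlier results of these data known. Of the table's rows, 4879 were 0 in every library and 27 carried symbols turned into dates. Figures were drawn with Python 3.11.15 and matplotlib 3.10.9. Some members and partner genes are not reported here by name.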

Additional observations from a re-analysis of the deposited data

How the results depend on the processing

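Against 3 of 15 subunits called, all lower in BrM, the count was 7 of 56 tested with no filter on low values (Chrna7, Glra1, Glra3 and Gria3 added), 1 of 8 with a minimum mean of 50, 5 with DESeq2 and 1 with BrM replicates 2 and 3 averaged, an alternative chosen after seeing the data. Over all genes the main fit called 3881 of 13821. The count was 4054 of 19183 without the filter, 3347 of 12112 with the minimum of 50 and 5075 of 13821 with DESeq2. The 4 subunits added without the filter had 0 to 2 reads in BrM, which makes a fall the outcome open to them. A subunit higher in BrM, Chrnb1, was called with upper quartile scaling, edgeR and DESeq2, 1 in each. Leaving out 1 library at a time gave 1 to 6 called subunits, 0 to 1 higher and 1 to 5 lower, 2191 to 6519 called genes and 12 to 30 called partner genes. Averaging BrM replicates 2 and 3 gave 2279 genes and 13 partner genes, against 3881 and 21. Grik2 was called under every alternative run. Upper quartile scaling moved the median log2 fold change of all genes from -0.05 to 0.06.

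Signs turned for genes that were not called. Grin1 (-0.27) was 0.13 with edgeR, 0.17 with DESeq2 and 0.12 with the average, and -1.03 to 0.25 over the left-out libraries. Over the same, Glrb went from -1.50 to 0.046, Chrna1 from -0.038 to 0.35 and Slc12a5 from -0.45 to 0.44. The cause was not tested.

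Deviations of libraries with the same number correlated at r = 0.30, -0.09 and 0.33 for replicates 1, 2 and 3. BrM replicates 2 and 3 were close to each other and correlated alike with parental replicate 3 (r = 0.31 and 0.33). Their pairings could therefore not be told apart, and whether libraries with the same number share more than that number cannot be decided here. A replicate block gave 4 called subunits, with Grik5 added (adjusted p = 0.0394), 4040 genes and 21 partner genes. Depth limits the 52 subunits below the expression level, which held 184 reads in BrM and 286 in the parental line.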

Other observations

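Among other transmitter receptors, outside the name pattern, the muscarinic receptor Chrm3 fell in BrM. Of 7 tested muscarinic, purine and other ligand-gated receptors, 1 rose, 2 fell and 4 did not pass (limma). That is 42.9% called, against 28.1% of all tested genes. The muscarinic acetylcholine receptor Chrm3 had 3.66, 29.7 and 27.9 in BrM replicates 1, 2 and 3, against 828, 582 and 297 in parental replicates 1, 2 and 3. The groups were far apart, with a 32.7-fold fall (adjusted p = 0.00591) that was 17.6-fold without BrM replicate 1. P2rx3, an ATP-gated channel of sensory neurons, had 72.0, 23.0 and 31.7 in BrM replicates 1, 2 and 3, against 9.16, 4.94 and 5.67 in parental replicates 1, 2 and 3. It rose 5.22-fold (adjusted p = 0.0184), a call that ended without parental replicate 2 (0.0706), parental replicate 3 (0.0559) or BrM replicate 3 (0.0539). Its parental mean was under 10, which makes a rise the outcome open to it. P2rx5 fell 2.70-fold (adjusted p = 0.04997), and its call ended without any library other than parental replicate 3 (0.0548 to 0.157). P2rx5 lost it in 12 of 18 alternatives, among them a pseudocount of 0.5, no filter, a minimum mean of 1, upper quartile scaling, robust moderation and the replicate block (0.0505 to 0.0869).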
